A study of Homo sapiens with 2 samples.

Results

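Protein tyrosine phosphatases of the PTPR and PTPN families were examined in a derivative of the established human lung adenocarcinoma cell line H1993 that is resistant to PHA665752, which inhibits the receptor tyrosine kinase MET, and in parental H1993 cells. H1993 carries an amplified MET gene. The genes were taken by symbol, as every PTPR gene with a letter suffix and every PTPN gene with a number, with 1 symbol left out. This gave 36 of the 18944 genes in the table, of which 20 were PTPR and 16 were PTPN genes. The resistant line was selected in PHA665752 raised in steps between 1 nM and 1 µM, was kept in 1 µM and was grown in drug-free medium for 1 week before experiments, and its sample carries PHA665752 as its treatment label. The parental H1993 sample carries DMSO, the solvent, as its treatment label. Both lines were grown in RPMI-1640 with fetal bovine serum. The labels leave unsaid if the resistant cells were in drug at RNA extraction and if their line is 1 clone. A single RNA-seq library was made per line, with 17086748 counts in the resistant and 16723181 in the parental library.

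Phosphotyrosine is written by tyrosine kinases such as MET and erased by protein tyrosine phosphatases. The PTPR genes encode transmembrane receptors whose outer parts meet other cells or the matrix. The PTPN genes encode phosphatases without a transmembrane receptor body, which are brought to their substrates by adaptor domains. Several members act on MET itself or on its downstream signals. PTPRJ, PTPN1 and PTPN2 are known to dephosphorylate MET, SHP2 (the product of PTPN11) carries the signal of the docking protein GAB1 to RAS and ERK, and PTPRR holds ERK through a kinase interaction motif and inactivates it.

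With 1 library per line there is no replicate check, no test and no p-value, and every statement describes these 2 libraries. Levels are given as CPM, a gene's count scaled to a common library size after adjustment by the trimmed mean of M-values. Log2 ratios put the resistant library over the parental one after adding 0.5 to both counts. Folds of family genes and of their sums are ratios of CPM without the added 0.5. All intervals are exact 95% intervals that cover counting error only. A gene was tested when it reached 1 CPM in at least 1 library, and it was called higher or lower when the difference reached 2-fold, a log2 ratio of 1 in size, with an interval that excluded 0. Depth was close between the libraries, with 14655 genes at 1 count or more in the resistant and 14205 in the parental library. Both libraries were epithelial in profile, since 8 of 10 epithelial markers passed 1 CPM. The list summed to 8522 CPM in the resistant and 7955 CPM in the parental library, with KRT8 and KRT18 giving the largest parts. The 8 had a median log2 ratio of -0.29, with 4 above 0 and 4 below, and EPCAM was called lower. Of the lung markers, NKX2-1 had 101 counts in the resistant and 70 in the parental library, while NAPSA and SFTPB had at most 2 in either. Of 13 blood cell markers, 1 passed, and they summed to 2.36 CPM in the resistant and 1.31 CPM in the parental library. Of 6 endothelial markers, CDH5 passed alone, and of 8 fibroblast markers, COL1A1 alone.

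The genes that differed most were PTPR genes. PTPRR, PTPRB, PTPRU and PTPRC were lower in the resistant library, PTPRH, PTPRE and PTPRQ were higher, and among the PTPN genes PTPN4 was the 1 called gene. Of the 36 genes, 25 were tested, 3 were called higher and 5 lower, and 17 were called neither way. Across all 12245 tested genes, 12.1% were called higher, 8.29% lower and 20.4% in either direction. The called genes included 7 of the 13 tested PTPR genes and 1 of the 12 tested PTPN genes. Of the 8 called genes, PTPRR, PTPRB, PTPRC and PTPRQ were under 1 CPM in 1 library and were tested through the other alone, which fixed the direction of their difference though not its size. The other 4 called genes were among 21 that reached 1 CPM in both libraries. In bulk RNA, fewer cells with a transcript and less of it per cell cannot be told apart.

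The counts of called genes shifted with the rule. By a difference of 1 in the authors' deposited log2 values, 2 genes of the family were higher and 3 lower, beside 7.56% and 4.83% of all tested genes (12.4% in either direction). With the whole interval beyond 2-fold, 3 were higher and 4 lower, beside 8.96% and 5.35% of all tested genes (14.3% in either direction). By a 4-fold rule, 2 were higher and 3 lower, beside 6.32% and 2.93% (9.25% in either direction). PTPRR, PTPRB, PTPRU and PTPRH were called under all 3 of these rules as well.

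**Figure D1:**
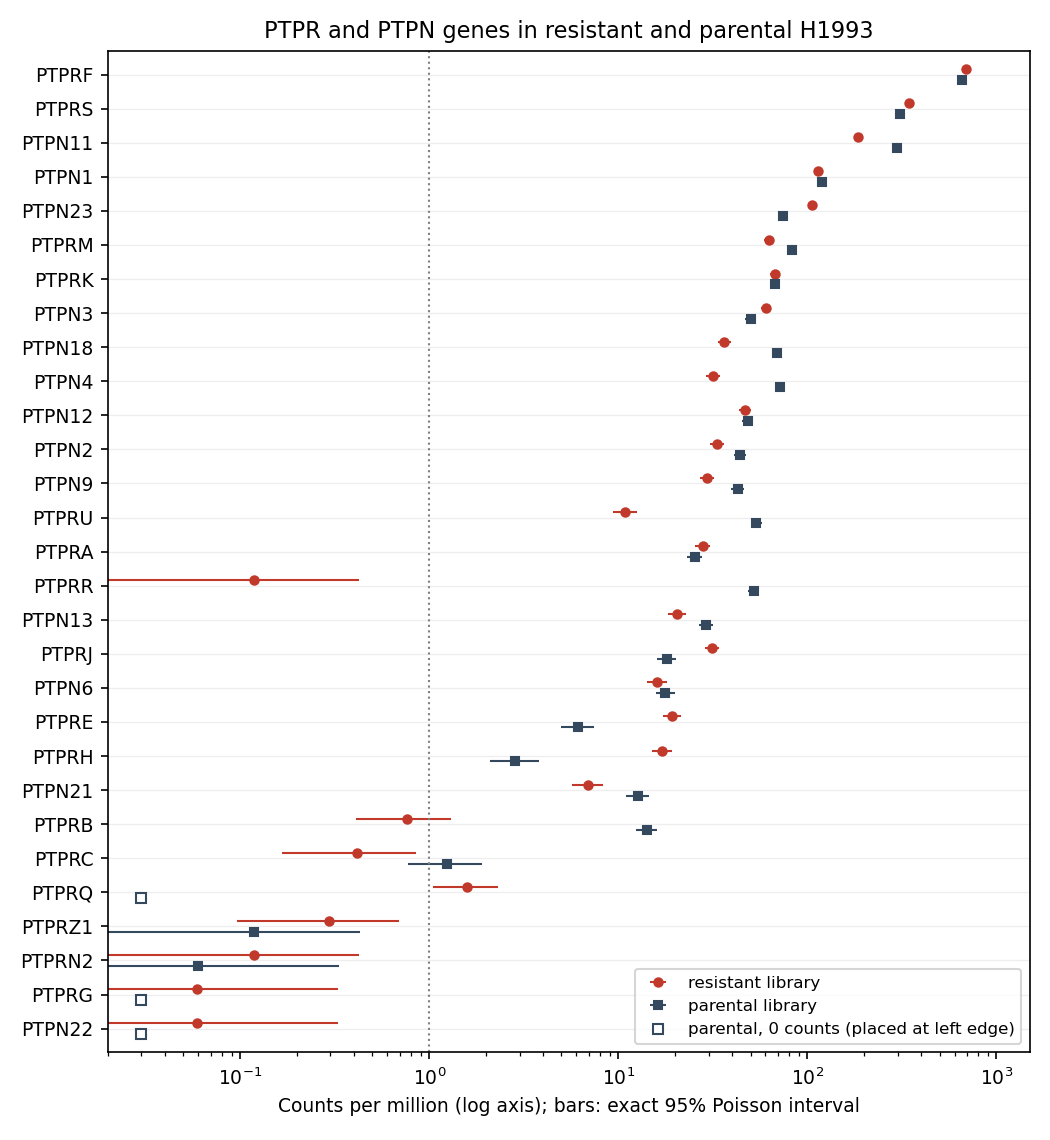
Level of each PTPR or PTPN gene with at least 1 count, in CPM on a log axis, in the resistant (circles) and parental (squares) library, with exact 95% Poisson intervals (cut at the left edge) and open symbols for 0 counts. PTPRF, PTPRS, PTPN11 and PTPN1 lie at the top in both libraries, while PTPRR and PTPRB are under 1 CPM in the resistant library and at 52.2 and 14.1 CPM in the parental one.

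The sequences upstream of 4 called genes are shown because these genes lie at the extremes of the family in both directions and passed with the deposited log2 values as well. Each is the 250 bases before the outermost RefSeq transcript start of the gene on GRCh38.p14, written on the gene's strand. Capitals mark CACCTG or its complement CAGGTG, an E-box bound by zinc finger repressors of epithelial genes.
PTPRR, chr12:70788921-70789170, minus strand: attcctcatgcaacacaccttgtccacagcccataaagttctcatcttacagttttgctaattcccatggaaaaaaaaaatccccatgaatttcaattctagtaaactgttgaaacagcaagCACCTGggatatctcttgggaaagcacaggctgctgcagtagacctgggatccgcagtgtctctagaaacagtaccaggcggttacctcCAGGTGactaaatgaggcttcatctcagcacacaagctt
PTPRU, chr1:29236272-29236521, plus strand: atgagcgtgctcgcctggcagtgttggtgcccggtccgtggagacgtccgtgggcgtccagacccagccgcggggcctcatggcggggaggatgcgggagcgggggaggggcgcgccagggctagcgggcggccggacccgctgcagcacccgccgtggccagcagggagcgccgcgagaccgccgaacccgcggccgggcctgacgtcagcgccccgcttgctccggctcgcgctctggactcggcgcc
PTPRH, chr19:55209502-55209751, minus strand: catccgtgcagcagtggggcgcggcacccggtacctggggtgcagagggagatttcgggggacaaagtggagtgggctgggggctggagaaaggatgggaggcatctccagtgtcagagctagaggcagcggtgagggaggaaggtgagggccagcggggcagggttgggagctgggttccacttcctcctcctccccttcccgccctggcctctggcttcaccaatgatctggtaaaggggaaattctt
PTPRE, chr10:127906853-127907102, plus strand: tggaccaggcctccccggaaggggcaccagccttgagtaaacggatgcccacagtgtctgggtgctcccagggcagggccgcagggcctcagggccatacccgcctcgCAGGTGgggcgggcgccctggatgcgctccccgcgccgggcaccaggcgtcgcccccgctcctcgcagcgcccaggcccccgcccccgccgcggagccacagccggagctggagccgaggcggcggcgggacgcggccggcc
PTPRR has 3 RefSeq starts and PTPRE has 4, and the counts do not say which was used. PTPRR carried the E-box letters at 2 places and PTPRE at 1. Over 35116 RefSeq windows of the same length, 17.5% held this E-box at least once on either strand. Neither TGANTCA, the AP-1 site (6.57% of all windows), nor GGAATG, the TEAD site (11.9%), was in any of the 4 windows on either strand. The windows differed in base composition, with 2 CpG pairs and 44.8% GC for PTPRR, 36 and 77.6% for PTPRU, 8 and 63.2% for PTPRH, and 28 and 78.4% for PTPRE. Over all windows the medians were 11 CpG pairs and 58.0% GC. Of the 36 genes, 31 had a RefSeq window. PTPRB and PTPRQ were the called genes without one.

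PTPRR showed the widest gap of the family. It had 2 counts (0.118 CPM) in the resistant library, against 878 counts (52.2 CPM) in the parental library, a 443-fold lower level (interval 122 to 3661). By the authors' deposited log2 values, which look corrected for gene length and were used to compare genes, PTPRR ranked 26 of the 36 genes in the resistant library at 0.066, and 6 in the parental library at 4.376. PTPRR is one of 3 phosphatases with a kinase interaction motif for ERK and p38. The others are PTPN5, known from brain, and PTPN7, known from blood cells, and both had 0 counts in both libraries, where the limit set at 3 counts in a library is 0.177 CPM in the resistant and 0.178 CPM in the parental library. The whole group therefore had 2 counts in the resistant and 878 in the parental library.

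PTPRB, the receptor known in blood vessels as VE-PTP for its binding to VE-cadherin, was also scarce in the resistant library. It had 13 counts (0.766 CPM) there, against 238 counts (14.1 CPM) in the parental library, 18.5-fold lower (10.6 to 35.2). CDH5, the VE-cadherin gene, stood the other way, at 495 counts in the resistant and 5 in the parental library. No other endothelial marker of the list had more than 3 counts in either library, and TEK, the gene of the other known partner of VE-PTP, had 0 in both. In GENCODE release 29, antisense transcripts on the opposite strand cover 7.15% and 1.82% of the exonic length of PTPRB, and their reads cannot be told apart from its own without a stated strand setting. A pseudogene likewise covers 2.66% of the exonic length of PTPRR on the opposite strand.

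PTPRB and PTPRR lie next to each other on chromosome 12. The nearest tested gene on the PTPRB side, CNOT2, had a log2 ratio of -0.30, with 1665 counts in the resistant and 2034 in the parental library. On the PTPRR side, TSPAN8 was at 0.81, with 1179 and 669 counts in the resistant and parental libraries. Among the 20 nearest tested neighbours of PTPRR, PTPRB included, 3 were called lower and 1 higher, and their median log2 ratio was -0.31. PTPRB and PTPRR thus differed far more than the tested genes that flank the pair. These neighbourhoods were examined after the values had been seen.

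PTPRU, a receptor with an outer MAM domain, was the next of the lower genes. It had 184 counts (10.8 CPM) in the resistant library, against 905 counts (53.8 CPM) in the parental library, 4.96-fold lower (4.23 to 5.84). The other members of its subfamily, adhesion receptors such as PTPRM and PTPRK that bind their own kind on the next cell, differed less. PTPRM was at 1067 counts in the resistant and 1396 in the parental library (log2 ratio -0.40, -0.52 to -0.28), and PTPRK at 1146 and 1141 counts in the same order (-0.01, -0.13 to 0.11). PTPRT had 0 counts in both. In sum the subfamily stood at 141 CPM in the resistant and 204 CPM in the parental library, 1.45-fold lower (1.37 to 1.53). Of that gap, PTPRU gave the largest part. Of the tested genes that flank PTPRU on chromosome 1, MECR was uncalled (-0.18) and SDC3, a heparan sulfate proteoglycan gene, was called lower (-1.47). The 20 nearest tested neighbours had a median of -0.16, with 2 called higher and 2 lower.

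PTPRC, the CD45 gene of blood cells, had 7 counts (0.412 CPM) in the resistant library and 21 counts (1.25 CPM) in the parental library. Its 3.02-fold lower level has an interval of 1.24 to 8.42, and it is the weakest of the called genes. It was not called when the whole interval had to lie beyond 2-fold. Most defining blood cell markers were absent, with CD3E, CD3D, CD2, CD53, LAPTM5, FCGR3A and MS4A1 at 0 counts in both libraries. CD14 (33 counts in the resistant and 5 in the parental library) and CSF1R (1 and 9 counts) differed in opposite directions.

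**Figure D2:**
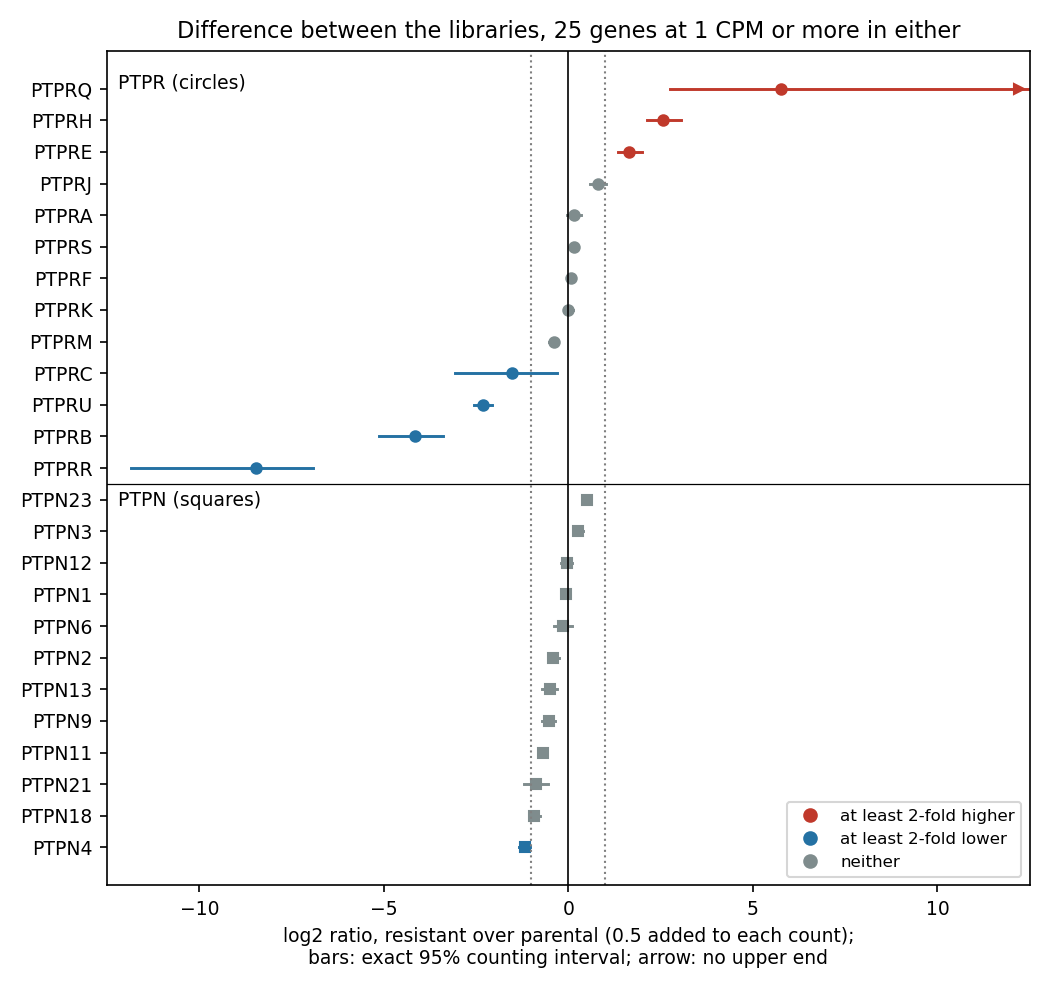
Log2 ratio of the 25 tested genes, resistant over parental, with exact 95% counting intervals, split into PTPR (circles) and PTPN (squares) genes and coloured by call; dotted lines mark a 2-fold difference. The PTPR genes span -8.47 to 5.77, whereas the PTPN genes lie between -1.18 and 0.50. Both ends of the PTPR span, PTPRR and PTPRQ, were tested through 1 library alone. Among PTPR genes at 1 CPM or more in both libraries the span is -2.31 (PTPRU) to 2.57 (PTPRH).

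On the higher side, PTPRH and PTPRE had well-covered counts. PTPRH, known as SAP-1 and found at the brush border of the gut, had 289 counts (17.0 CPM) in the resistant library and 48 counts (2.85 CPM) in the parental library, 5.97-fold higher (4.39 to 8.28). Its deposited log2 values were 2.434 in the resistant and 0.797 in the parental library, which placed it at rank 16 of the 36 genes in the resistant library, against rank 23 in the parental one. PTPRE, which with PTPRA forms the subfamily with short outer parts, had 327 counts (19.3 CPM) in the resistant library and 103 counts (6.12 CPM) in the parental library. It was 3.15-fold higher (2.52 to 3.97). PTPRA, known to activate SRC by removing its inhibitory phosphate, was at 476 counts in the resistant and 426 in the parental library, and its interval included 0 (log2 ratio 0.15, -0.04 to 0.34).

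PTPRQ, known from the hair cells of the inner ear, had 27 counts (1.59 CPM) in the resistant library and 0 in the parental library. That is at least 8.93-fold higher when the parental library is set at 3 counts, and the lower end of the exact interval is 6.77-fold. With the deposited log2 values it stood at 0.273 in the resistant library and 0 in the parental one, where a difference of 1 was out of reach.

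PTPRB, PTPRH, PTPRJ and PTPRQ belong to the same subfamily, with fibronectin repeats outside and 1 phosphatase domain inside. Of these 4, 3 had ratios above 0, as had 6123 of all 12245 tested genes. PTPRB and PTPRQ were tested through 1 library alone, which fixed the sign of their ratios. PTPRJ, also called DEP-1, had 534 counts (31.5 CPM) in the resistant library and 304 counts (18.1 CPM) in the parental library. Its log2 ratio of 0.80 (0.59 to 1.01) fell short of the call. The fifth member, PTPRO, known from kidney podocytes, had 0 counts in both libraries.

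PTPRF and PTPRS, the genes with the most counts of the family, differed little. PTPRF, the adhesion receptor LAR, had 11777 counts (694 CPM) in the resistant library and 11075 counts (658 CPM) in the parental library, a log2 ratio of 0.08 (0.04 to 0.11). PTPRS, its close relative and a receptor for heparan and chondroitin sulfate, had 5829 counts (343 CPM) in the resistant library and 5218 counts (310 CPM) in the parental library, at 0.15 (0.09 to 0.20). The third LAR relative, PTPRD, had 0 counts in both. PTPRF held the first rank by the deposited log2 values in both libraries, at 6.491 in the resistant and 6.415 in the parental one. By counts, PTPRF, PTPRS and PTPN11 made up 62.3% of the family total in the resistant and 58.4% in the parental library.

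**Figure D3:**
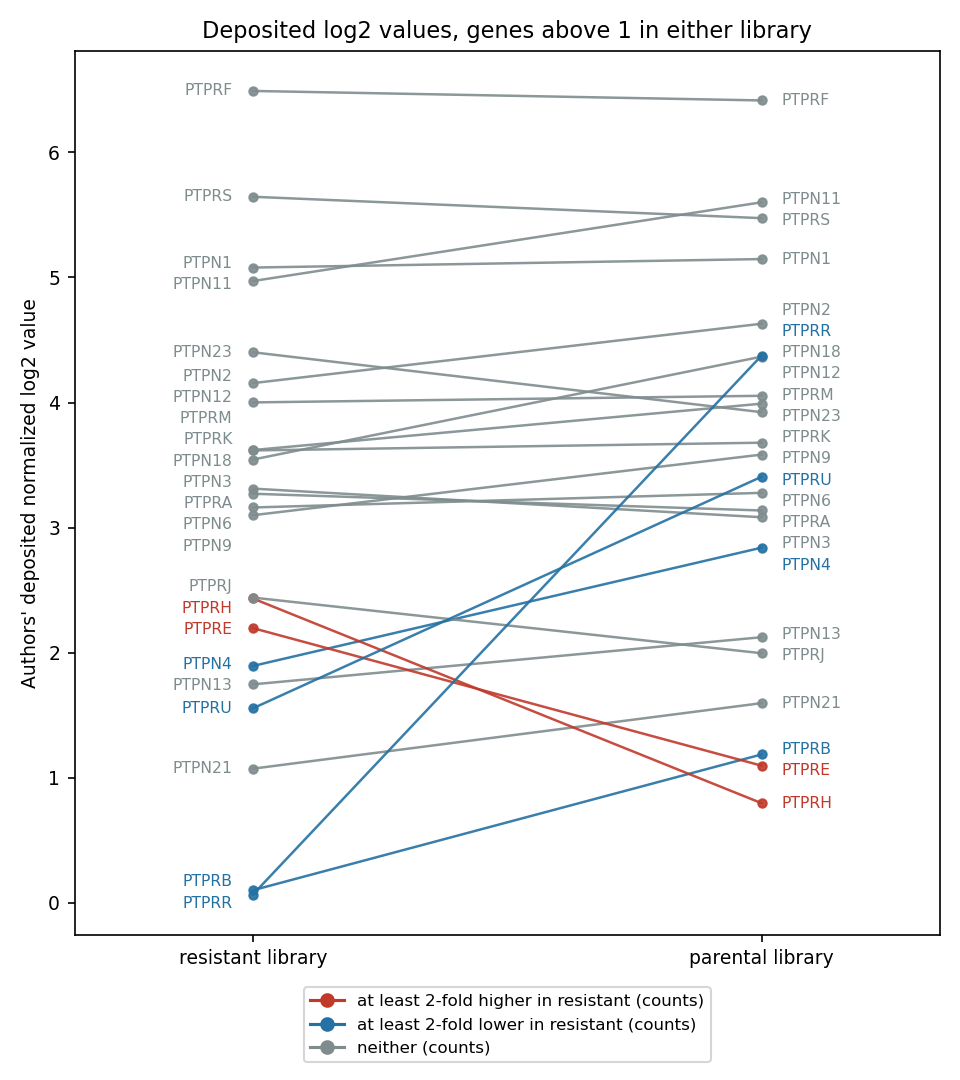
The authors' deposited log2 values of the genes above 1 in either library, with the resistant library on the left and the parental on the right; colours give the call from counts. PTPRF is highest on both sides, PTPRR runs between 0.066 in the resistant and 4.376 in the parental library, and PTPRH and PTPRE are higher in the resistant library.

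Among the PTPN genes most ratios were below 0. Of the 12 tested, 10 had a ratio below 0 and 2 above. For 9 the interval excluded 0, and these 9 include PTPN23 and PTPN3, the 2 above 0. Across all 12245 tested genes, 6122 had a ratio below 0, and for 9065 the interval excluded 0. The PTPN median was -0.46, against 0.08 for the 13 tested PTPR genes, -0.14 for all 25 and 0.00 for all 12245 tested genes. The 16 PTPN genes summed to 686 CPM in the resistant and 879 CPM in the parental library, 1.28-fold lower (1.25 to 1.31). The 20 PTPR genes summed to 1278 and 1292 CPM in the same order, 1.01-fold lower with an interval (0.99 to 1.03) that includes no difference.

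PTPN11 gave the largest part of the lower PTPN sum. It had 3144 counts (185 CPM) in the resistant library and 5036 counts (299 CPM) in the parental library, 1.62-fold lower (1.54 to 1.69), short of the call. Its deposited log2 value was 4.971 in the resistant and 5.601 in the parental library, which placed it at rank 4 and rank 2 of the 36 genes. Its relative PTPN6, the SHP1 gene, was at 273 counts in the resistant and 298 in the parental library (log2 ratio -0.14, -0.38 to 0.10).

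PTPN4, which carries a FERM and a PDZ domain, had 536 counts (31.6 CPM) in the resistant library and 1205 counts (71.6 CPM) in the parental library. It was 2.27-fold lower (2.05 to 2.51), but its deposited log2 values, 1.894 in the resistant and 2.840 in the parental library, differed by less than 1. Unlogged and with 1 subtracted, the deposited values gave a log2 ratio of -1.18 for PTPN4, like the counts. The other FERM phosphatases were not called. PTPN21 was at 117 and 213 counts in the resistant and parental libraries (-0.87, -1.21 to -0.54), PTPN13 at 347 and 490 (-0.51, -0.71 to -0.31), and PTPN3, the closest relative of PTPN4, at 1021 and 846 (0.26, 0.13 to 0.39). PTPN4 and PTPN3 thus had ratios of opposite sign.

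PTPN4 sits among genes with ratios below 0 on chromosome 2. Its 20 nearest tested neighbours had a median log2 ratio of -0.68, with 5 called lower and 2 called higher. PTPN18, further along the same chromosome, showed the same, with a neighbour median of -0.89, 6 called lower and none called higher (0 of 20). PTPN18, which is known to act on the receptor HER2, had 617 counts (36.3 CPM) in the resistant library and 1161 counts (69.0 CPM) in the parental library, at -0.92 (-1.07 to -0.78), just short of the call. No copy number was measured, and the part of these neighbourhoods in the levels of PTPN4 and PTPN18 was not tested. For the 23 other tested genes of the family the neighbour medians lay between -0.53 (PTPN9) and 0.44 (PTPRH).

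**Figure D4:**
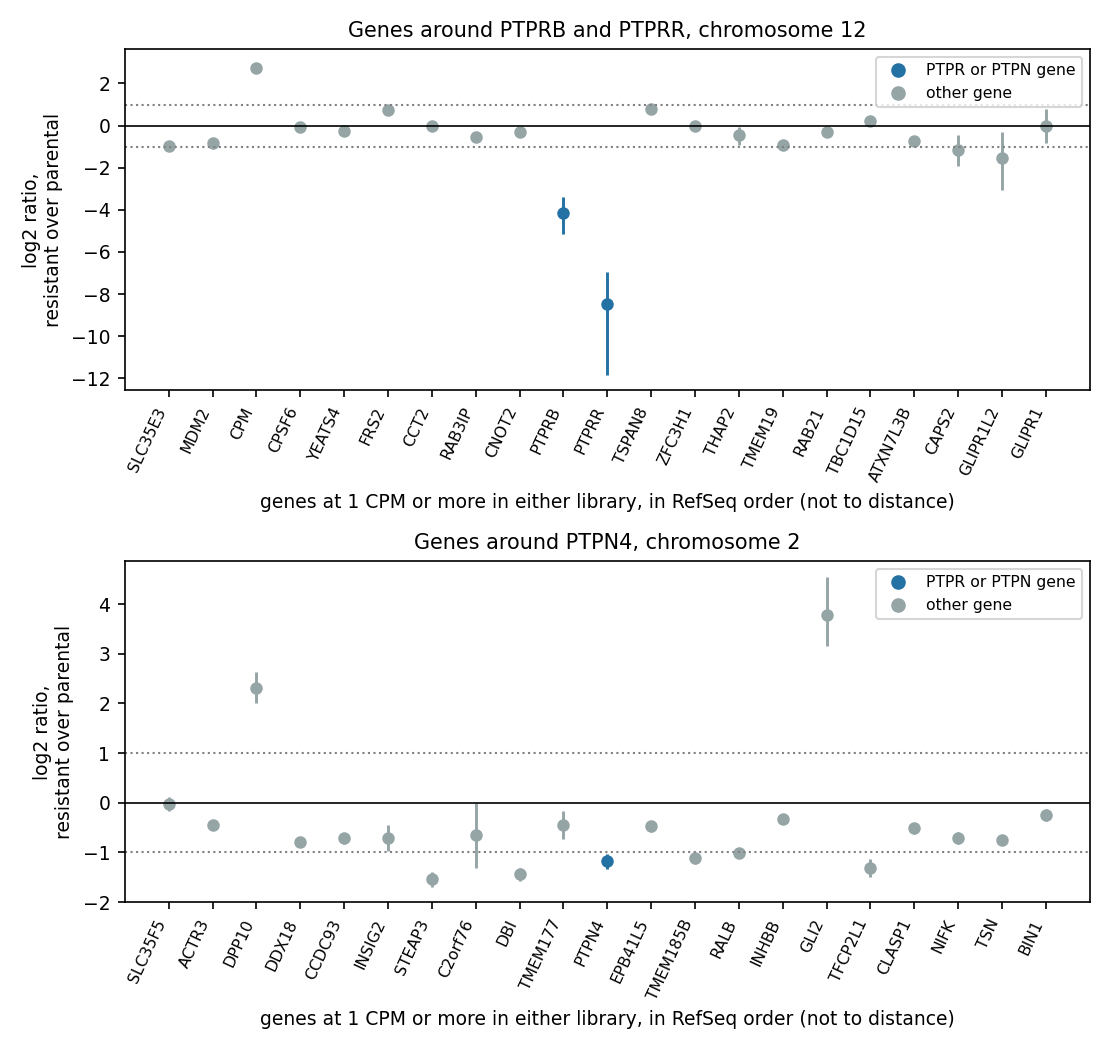
Log2 ratio with exact 95% counting interval for the 20 nearest tested genes around PTPRR (top, with PTPRB beside it) and around PTPN4 (bottom), in RefSeq gene order and not to distance; PTPR and PTPN genes are blue. PTPRB (-4.15) and PTPRR (-8.47) stand apart from flanking genes such as CNOT2 (-0.30) and TSPAN8 (0.81), whereas PTPN4 (-1.18) lies among neighbours with a median of -0.68.

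The remaining PTPN genes spread over a narrow range. PTPN1, the gene of PTP1B on the endoplasmic reticulum, was at 1940 counts (114 CPM) in the resistant and 2022 counts (120 CPM) in the parental library, with an interval that included 0 (-0.07, -0.16 to 0.02). Its nearest relative PTPN2, which is known to dephosphorylate JAK and STAT proteins, was at 563 and 739 counts in the resistant and parental libraries (-0.40, -0.57 to -0.24). GENCODE release 29 lists 2 pseudogenes named after PTPN2, so its reads may be split. PTPN12, which acts on the focal adhesion protein BCAR1, was at 795 and 814 counts (-0.05, -0.19 to 0.10). PTPN9, found on secretory vesicles, was at 499 and 719 (-0.54, -0.71 to -0.37). PTPN23, known as HD-PTP and needed for sorting of receptors in endosomes, was the PTPN gene with the highest ratio, at 1792 counts (106 CPM) in the resistant and 1254 counts (74.5 CPM) in the parental library (0.50, 0.40 to 0.61).

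The 11 genes under the filter were close to absent from both libraries. PTPN5, PTPN7, PTPN20, PTPRD, PTPRN, PTPRO and PTPRT had 0 counts in both. PTPRG and PTPN22 had 1 count in the resistant library and 0 in the parental one. PTPRZ1 had 5 counts in the resistant and 2 in the parental library, and PTPRN2, a protein of secretory granules like PTPRN, had 2 and 1. PTPRG and PTPRZ1 share a carbonic anhydrase-like outer domain, and no difference was detectable for them at this depth. Of the known PTPRZ1 ligands, PTN had 0 counts in both libraries and MDK had 12 in the resistant and 297 in the parental library.

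Genes known to work with these phosphatases were read beside the same background, 12.1% of all tested genes higher and 8.29% lower. Of 34 ligand genes of receptor phosphatases, 20 were tested, 7 were called higher and 4 lower, with a median log2 ratio of -0.11. Of these called genes, GPC2, GPC3, GPC5, GPC6, SLITRK5, SLITRK6 and MDK were under 1 CPM in 1 library and were tested only through the library in which they were high. VCAN, a chondroitin sulfate proteoglycan gene, had 4569 counts in the resistant library and 130 in the parental library. Among the glypican genes, GPC3 had 477 counts in the resistant and 0 in the parental library, GPC6 had 311 and 1, GPC5 had 34 and 0, and GPC2 had 31 and 12. THBS1, whose product binds PTPRJ, was at 3336 and 1259 counts, and SLITRK5 at 64 and 4. The lower ones were SLITRK6 at 6 counts in the resistant and 478 in the parental library, MDK, SDC3 and GPC4. AGRN was the most abundant of this list by counts, at 10985 in the resistant and 12494 in the parental library.

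Inside the cell, 14 of 18 genes of SHP2 docking proteins and partners were tested, and 0 were called in either direction. Their median was 0.10. The highest ratio among them was that of GAB2 (0.91, 0.71 to 1.11), and SHC1 had the most counts, 6821 in the resistant and 5684 in the parental library. All 7 genes of the MAP kinases bound through the kinase interaction motif were tested, and 0 were called, with a median of -0.39. All 10 JAK and STAT genes were tested. STAT6 was called higher with 767 counts in the resistant and 2 in the parental library, and STAT5A with 221 and 6. Parental levels of STAT6 (0.119 CPM) and STAT5A (0.356 CPM) fell short of 1 CPM. Only their resistant levels let them be tested, so the direction of both calls was fixed. The other 8 JAK and STAT genes were uncalled, JAK1 among them as the one with the most counts, and the median was 0.33.

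The SRC family, on which PTPRA and PTPRE act, was mixed. Of 12 genes for these kinases and their regulators, 8 were tested, 3 were called higher and 1 lower, and the median was 0.13. FYN had 1670 counts in the resistant and 444 in the parental library, 3.73-fold higher on the ratio with 0.5 added. CSK, the kinase that places the inhibitory phosphate, had 536 and 1105 counts, 2.08-fold lower. CBLC (59 and 4 counts) and SRC (25 and 11 counts) were called higher at low counts. Each was under 1 CPM in the parental library and was tested through the resistant library alone, which fixed its direction. LYN had the most counts of the list, with 2385 in the resistant and 1484 in the parental library, and was not called.

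Among 21 receptor tyrosine kinase genes, 10 were tested, 3 were called higher (EGFR, AXL and FLT4) and 1 lower (ERBB3), with a median of -0.19. MET, the most abundant, was at 51832 counts in the resistant and 81798 in the parental library, a log2 ratio of -0.67. AXL (52 counts in the resistant and 7 in the parental library) and FLT4 (45 and 3) were under 1 CPM in the parental library. These calls came through the resistant library alone, which fixed their direction. Of 13 focal adhesion substrates, 11 were tested, 3 were called higher and 1 lower. NEDD9, a relative of the PTPN12 substrate BCAR1, had 1668 counts in the resistant and 91 in the parental library, TGFB1I1 had 138 and 5, PTK2B had 1027 and 441, and CAV1 was lower with 5005 and 15703. Of these, TGFB1I1 was under 1 CPM in the parental library and was tested through the resistant library alone. The 10 junction genes found in the table were all tested, with CDH2 called higher (197 and 43 counts) and CDH3 lower (703 and 1662 counts). Of 8 cytoplasmic partners of LAR, 6 were tested and PPFIA3 was called higher, at 215 counts in the resistant and 41 in the parental library, while TRIO, with the most counts, was not called (0.26, 0.21 to 0.31).

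Tyrosine phosphatases outside the PTPR and PTPN families gave a median of 0.02, with 2 of 20 tested genes called higher and 1 lower. PALD1 had 126 counts in the resistant library and 0 in the parental library, EPM2A had 145 and 65, and EYA2 had 10 and 244. PALD1 in the parental and EYA2 in the resistant library were under 1 CPM, so each was tested through the other library alone. PTP4A2 had the most counts, 9182 in the resistant and 10200 in the parental library.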

How the data were processed

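Gene counts of 1 resistant and 1 parental H1993 library were taken from the authors' deposited table, which also holds the authors' log2 values. Per the submitters' processing notes, FastQC and STAR were used and both GRCh38 and hg19 are named. The counter, the strand setting and the formula of the log2 values are not given in the sources used here. Per 1 unit of the unlogged log2 value, counts rose with exonic length in GENCODE 29 across 8203 genes (Spearman 0.71), and so the log2 values were used to compare genes. Counts were scaled with edgeR 4.0.16 (TMM, R 4.3.3). Ratios, exact conditional binomial intervals and Poisson intervals were computed in Python 3.11.15 with scipy 1.17.1. DESeq2 1.42.0 size factors, no filter, a 5 CPM filter, other pseudocounts and thresholds and the log2 values were tried as alternatives. The steps were tested on simulated data. Called genes and those with a summed level of 50 CPM or more were given with counts, a fold or log2 ratio and its interval. CPM was added for only a part of them. In the context lists called genes were named, and in some lists the most abundant one. Members and lists were chosen with earlier results of these data known. In the table, 1 matching symbol is not reported here, nor is 1 gene of the context lists. Promoter sequences and gene order are from RefSeq (GRCh38.p14).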

Additional observations from a re-analysis of the deposited data

How the results depend on the processing

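With 1 library per line, spread between cultures was not measured, and intervals cover counting error only. Counts limit PTPRC and PTPRQ most. Of 46 alternative values of the family's counts, medians and sums, 44 stayed close to the reported value by the limit set for each, and 2 moved. Those that moved were the number of genes called lower by the deposited log2 values and by a 4-fold rule. All medians kept their sign, whereas counts of calls and sums have no direction to keep. The largest shift of a median came with no filter, at -0.05 for the whole family (reported -0.14) and 0.15 for the PTPR genes (reported 0.08). Where 3 genes were called higher, 2 were at a 5 CPM filter, by the deposited log2 values and by a 4-fold rule. Where 5 genes were called lower, 3 were by the deposited log2 values and 3 by a 4-fold rule. PTPN4 (-0.95 by the deposited log2 values), PTPRC and PTPRQ lost their call with the deposited log2 values, and PTPN4, PTPRC and PTPRE with the 4-fold rule. For PTPN4 and PTPRQ the deposited scale, on which PTPRQ stands at 0 in the parental library and low values are drawn together, limits the difference that can be seen. PTPRC and PTPRQ were not tested at a 5 CPM filter. By the deposited log2 values, 7.56% of all tested genes were called higher and 4.83% lower. The log2 ratio of PTPRK, close to 0, turned to 0.01 with DESeq2 size factors (reported -0.01), and no other tested gene of the family changed direction under the alternatives run. No paired analysis was possible because each line has 1 library.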

Other observations

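PTPRJ stood apart in how its deposited log2 value relates to its counts, a comparison chosen after the values were seen. It had 121 counts per unit of the unlogged value in the resistant library and 102 in the parental library, a log2 shift of -0.25. Over 8345 genes with at least 200 counts in both libraries the median shift was -0.01, and 0.324% of genes had a larger one in size. PTPN2 shifted by -0.11 and PTPRK by -0.07. Whether transcript lengths differ between the libraries was not tested.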
